A study of Mus musculus with 8 samples.

Results

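Regulated exocytosis is the step by which an islet cell releases hormone, and 50 genes of its machinery were chosen by name as a functional list: SNAREs and the proteins that bind them, synaptotagmins, Rab GTPases with their effectors and priming factors, the proteins that recycle SNAREs, and the exocyst. Membership rests on the names, with no threshold on a measured value, but the list was chosen with earlier results of these data known. The deposited table held 46 of the 50, and all 46 passed the filter on low values (a mean log2 CPM above 0), out of 13725 genes in the table and 12231 genes tested. The other members, Vamp7, Syt16, Cplx1 and Doc2b, were not analysed here. RNA came from pancreatic islets of 10-week-old female mice of the NOD strain, in which the immune system attacks beta cells. The mice had received vehicle or PAHSA (spelled PASHA on the sample labels), fatty acid esters of hydroxy fatty acids in which palmitic acid is joined to hydroxystearic acid. There were 4 libraries per group. Vehicle libraries are numbered 1, 3, 4 and 5 and PAHSA libraries 1, 2, 3 and 4. Neither dose nor duration is stated in these sources, and the labels and the design text differ on whether a library is 1 mouse or a pool of 2, so p-values measure the spread between libraries.

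A hormone granule is brought to the plasma membrane by Rab GTPases, which act through effector proteins, and by the exocyst, a tethering complex. A SNARE of the vesicle (a VAMP) then zips together with SNAREs of the target membrane (a syntaxin and a SNAP-25 family protein), under the control of Munc18 proteins, Munc13 proteins and complexins. Calcium binding to synaptotagmins triggers fusion, and the ATPase NSF with its SNAP adaptors pulls the spent SNAREs apart. In beta cells this machinery sets insulin release, and alpha, delta and acinar cells use related members for their own products.

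None of these genes passed over all genes in the comparison of PAHSA with vehicle. The largest differences were a lower level of Syt4, a vesicle synaptotagmin of endocrine and nerve cells, at -0.52 (SE 0.12) on the log2 CPM scale, and of Unc13a, the priming factor Munc13-1, at -0.57 (SE 0.21). Napa, which encodes the adaptor alpha-SNAP, differed by 0.24 (SE 0.09). All other members lay between -0.39 and 0.40. By limma, 0 of 46 members had an adjusted p under 0.05 (0% of 12231 genes), and the smallest adjusted p was 0.671. At an unadjusted p under 0.05 there were 3 members, 6.52% of 46, beside 7.31% of all genes tested. One was higher in PAHSA (Napa; 3.02% of all genes) and 2 were lower (Syt4 and Unc13a; 4.29% of all genes), so the members' share did not stand above the background. The higher count was 0 without vehicle replicate 3 or vehicle replicate 4 and 2 without PAHSA replicate 2. Without PAHSA replicate 4 it was 1, but the member was Stx3 and no longer Napa. The lower count was 1 when vehicle replicate 3 or 5 or PAHSA replicate 1 was left out. Syt4 was among the members at that level in each of these fits.

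The members were measured more tightly than the average gene. The median SE of a difference was 0.17 over the 46 members and 0.25 over all genes tested, at a median level of 5.78 and 4.69 log2 CPM. The 95% confidence interval lay inside -1 to 1, a 2-fold change in either direction, for 40 of 46 members (87.0%) and for 63.8% of all genes. It lay inside -0.5 to 0.5 for 18 members (39.1%) and for 22.3% of all genes. The median difference was 0.01 over the members and -0.01 over all genes, with 25 members above 0 and 21 below. In 3 members the 4 PAHSA values all lay below the 4 vehicle values, Syt4, Rims2 and Rph3al, beside 1.95% of all genes that separated in this direction. In 0 members did PAHSA lie wholly above, beside 2.06% of all genes, and separation in either direction was found in 4.01%. The count of separated members was 5 without vehicle replicate 1 or PAHSA replicate 3 and 8 without the libraries numbered 4 of both groups. Fewer libraries separate more easily, and the shares of all genes in these fits are not given here. These counts therefore cannot be set beside the shares above, and the reason for the rise was not tested.

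**Figure D1:**
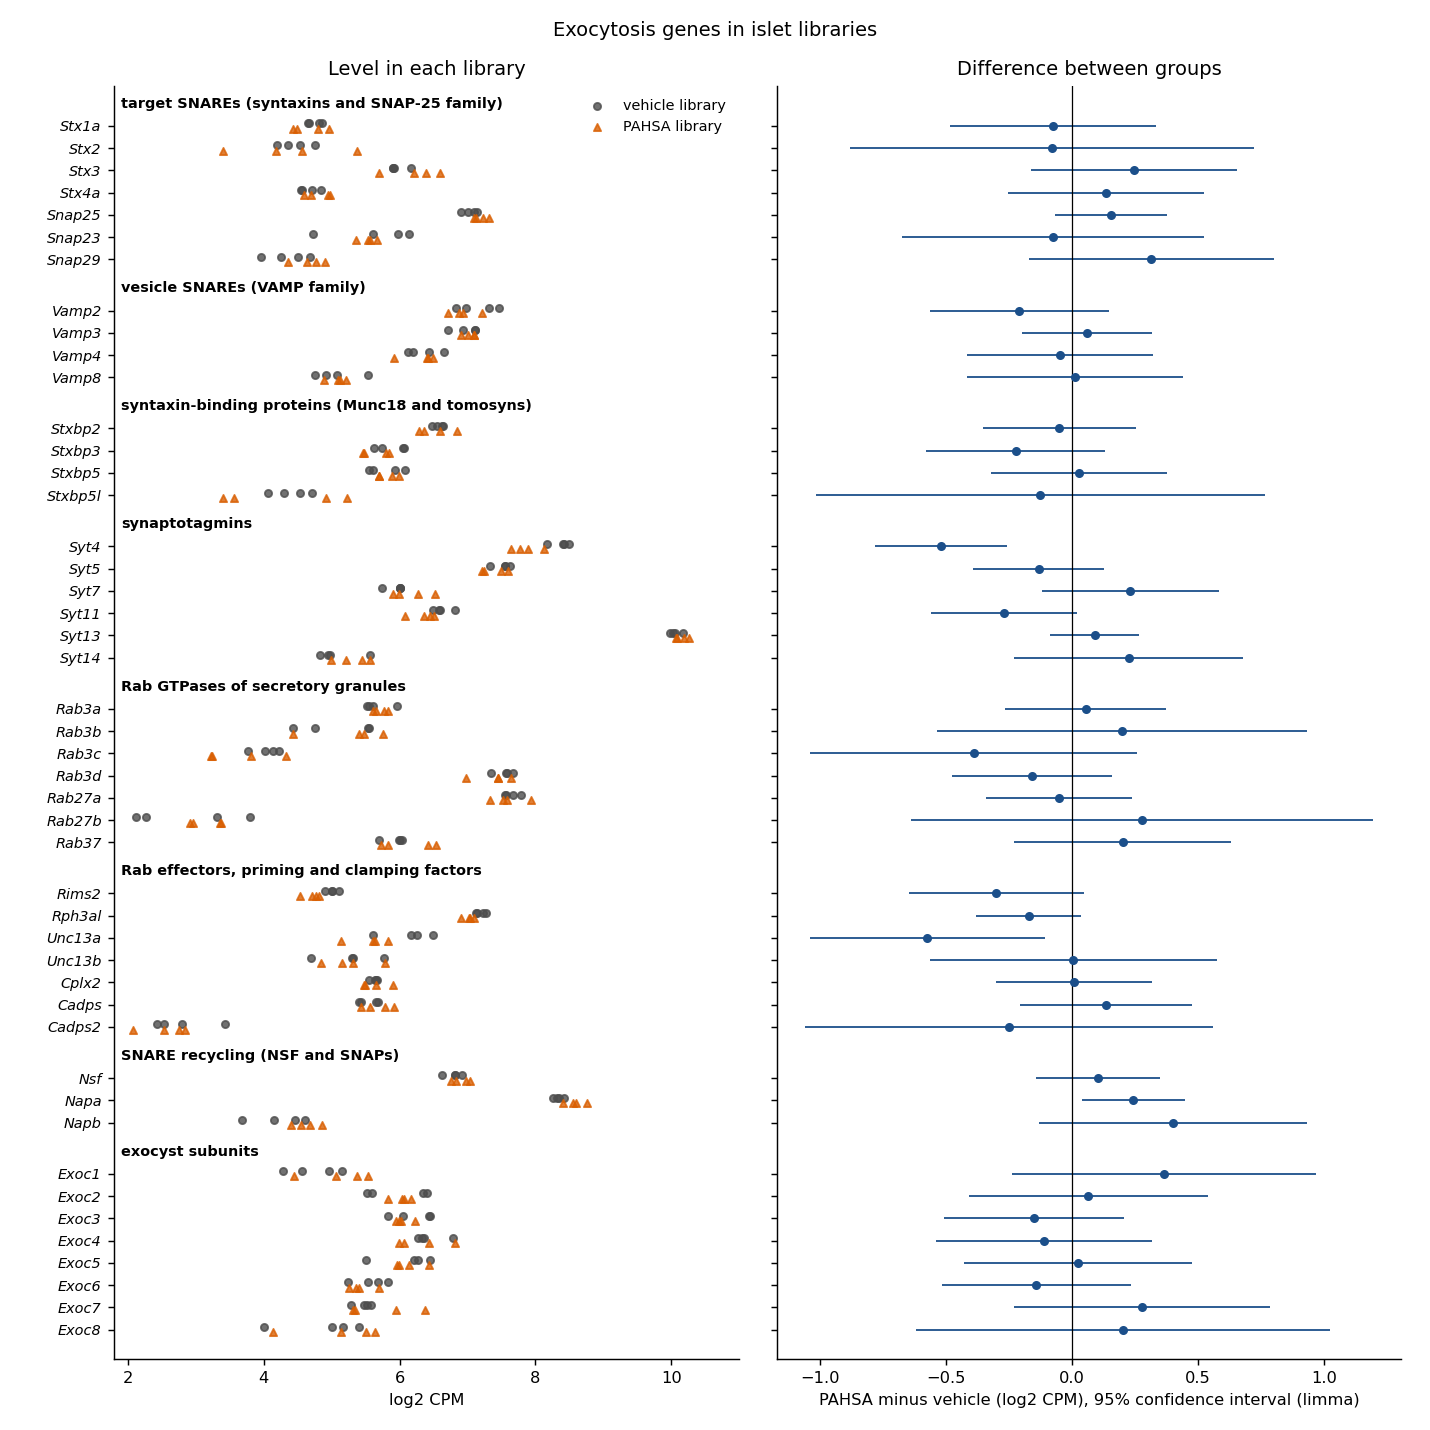
Left, the log2 CPM of each of the 46 exocytosis genes in the 4 vehicle libraries (grey circles) and the 4 PAHSA libraries (orange triangles), grouped by role. Right, the PAHSA minus vehicle difference with its 95% confidence interval from limma; the intervals of Syt4 and Unc13a lie below 0 and that of Napa above it, all without adjustment, while the other 43 include 0.

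The libraries differed in what else they held, and these values stand beside every result here. Recovered estimated counts ranged from 34461742 to 45236238 per library. Of beta cell markers 12 of 12 were found, and they summed to 137700 to 180600 CPM in vehicle and 142100 to 176500 CPM in PAHSA. One by one, 10 of the 12 were higher in PAHSA, with a median difference of 0.25, 3 at an unadjusted p under 0.05 and 2 wholly separated. The latter counts were 25% and 16.7% of the 12, beside 3.02% and 2.06% of all genes in this direction. The 10 markers of all endocrine cells, all found, summed to 15330 to 16110 and 14880 to 17770 CPM. Acinar markers, 27 of 28 found, summed to 13290 to 52820 CPM in vehicle and 582 to 20320 CPM in PAHSA, with Ptf1a at the lowest value of a library in at least 1 library. All 26 tested were lower in PAHSA, 18 at an unadjusted p under 0.05 and 0 wholly separated. Of all genes, 4.29% were lower at that level and 1.95% lay wholly below. Vehicle replicate 4 was the richest in acinar markers and PAHSA replicate 4 the poorest. Duct cell markers, 9 of 10 found and none at the lowest value, summed to 3995 to 5921 CPM in vehicle and 3226 to 4177 CPM in PAHSA. Of the 9, 7 were lower in PAHSA, 4 at an unadjusted p under 0.05 (44.4%, beside 4.29% of all genes) and 2 wholly separated (22.2%, beside 1.95%). Stellate and fibroblast markers, 10 of 10 found and with Lum at the lowest value in at least 1 library, summed to 82.2 to 314 CPM in vehicle and 38.3 to 143 CPM in PAHSA. Neuron and Schwann cell markers, 5 of 15 found, came to 36.9 to 50.6 and 43.5 to 57.5 CPM. Vehicle replicate 4 was the lowest of the 8 libraries for 14 of 46 members (30.4%), against 15.8% of all genes tested. The part of these lists in the members' differences was not tested. The mean log2 CPM of the acinar markers was 8.23 to 10.2 in vehicle and 3.65 to 8.80 in PAHSA. Fits and relations that use this mean therefore cannot fully separate acinar RNA from the treatment. In RNA from whole islets, fewer cells of a type and less RNA per cell cannot be told apart.

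Target SNAREs sit in the plasma membrane. Snap25, the partner of syntaxin in hormone and transmitter release, was the most abundant of the 7 per length, at 65.5 CPM per kb of its longest coding transcript (SD 5.61 over 8 libraries). Its log2 CPM was 7.0, 7.14, 6.91 and 7.09 in the vehicle libraries, in the order of their numbers 1, 3, 4 and 5, and 7.31, 7.13, 7.09 and 7.22 in PAHSA 1 to 4, an order kept throughout. The groups overlapped, with vehicle replicate 4 lowest and PAHSA replicate 1 highest, and differed by 0.15 (95% confidence interval -0.07 to 0.38; 0.09 with the acinar marker mean in the fit). Per length, Snap25 was followed by Stx3 at 24.8, Stx4a at 18.3 and Snap23 at 18.0 CPM per kb. Stx1a, the syntaxin of the classical insulin granule fusion complex, stood at 12.2 CPM per kb, and Stx2 and Snap29 at 7.75 and 6.72. The ranges of Stx4a and Snap23 overlapped over the libraries. By the median length of the coding transcripts Stx1a, Stx4a and Snap23 were at 19.4, 19.3 and 18.5, so their order depends on the length used. Stx1a was at 4.65, 4.85, 4.82 and 4.66 log2 CPM in vehicle and at 4.44, 4.96, 4.80 and 4.49 in PAHSA. The PAHSA values enclosed the vehicle values, and the difference was -0.08 (95% confidence interval -0.49 to 0.33).

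Snap23, Snap29, Syt11, Rims2, Rab3b and Exoc8 were picked for description after their values were seen. Snap23, the broadly expressed relative of Snap25, varied mostly through 1 library. It was at 4.72 log2 CPM in vehicle replicate 4, against 5.60 to 6.14 in the other vehicle libraries and 5.35 to 5.67 in PAHSA. Snap29, a SNARE of intracellular fusion, ranged from 3.96 to 4.68 in vehicle and from 4.35 to 4.90 in PAHSA. Its lowest value was also in vehicle replicate 4. In this role group 4 members were above 0 and 3 below, with a median difference of 0.13 and 0 at an unadjusted p under 0.05.

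Vesicle SNAREs ride on the granule. Vamp2, the main VAMP of insulin granules, and its relative Vamp3 stood at 60.6 and 60.5 CPM per kb, with overlapping ranges over the libraries. Vamp4, a SNARE of the trans-Golgi network, was at 29.5 CPM per kb and Vamp8, known from zymogen granules and endosomes, at 16.4. These distances depend on the length used: by the median length of the coding transcripts Vamp2 was at 80.5, Vamp3 at 60.5 and Vamp4 at 56.3. Vamp2 was at 6.83, 6.98, 7.47 and 7.31 log2 CPM in vehicle and at 6.94, 6.88, 6.71 and 7.21 in PAHSA. The groups overlapped, and the difference was -0.21 (95% confidence interval -0.57 to 0.14). It was -0.10 without vehicle replicate 4, -0.14 without PAHSA replicate 3 and -0.32 without vehicle replicate 1. Vamp3 differed by 0.06 (SE 0.12), Vamp4 by -0.05 (SE 0.17) and Vamp8 by 0.01 (SE 0.19), so that 2 of the 4 were above 0. For Vamp3, 9.03% of 31-base words in its transcripts also occur in transcripts of other genes, which makes its level less certain.

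Syntaxin-binding proteins hold syntaxins in check or guide their assembly. The Munc18 genes Stxbp2 and Stxbp3 stood at 32.4 and 22.6 CPM per kb, and the tomosyn genes Stxbp5 and Stxbp5l, inhibitors of SNARE assembly, at 6.38 and 4.98. Stxbp3 was at 6.07, 5.62, 5.74 and 6.05 log2 CPM in vehicle and at 5.79, 5.48, 5.85 and 5.46 in PAHSA, a difference of -0.22 (SE 0.16). Its groups overlapped, and 10.8% of its 31-base words recur in the pseudogene Stxbp3-ps. Stxbp5l was among the most variable members. Its PAHSA values were 4.91, 3.40, 5.22 and 3.56 log2 CPM, both above and below the vehicle values of 4.30, 4.06, 4.53 and 4.71. The PAHSA SD was 0.93 and the vehicle SD 0.28 (n = 4 each), and the difference of -0.13 had a 95% confidence interval from -1.02 to 0.77. Of this role group 1 member was above 0 and 3 below, with 0 at an unadjusted p under 0.05.

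Synaptotagmins held the most abundant member of the whole list. Syt13, an atypical synaptotagmin of the endocrine lineage that lacks calcium binding, was at 294 CPM per kb (SD 19.4 over 8 libraries) and ranked first of 46 by the longest transcript. It was also the steadiest, at 10.18, 10.03, 9.98 and 10.06 log2 CPM in vehicle and 10.08, 10.07, 10.26 and 10.19 in PAHSA, a difference of 0.09 (95% confidence interval -0.09 to 0.27; 0.28 under quantile normalization and 0.05 without PAHSA replicate 3). Syt5 followed at 101 CPM per kb and Syt4 at 72.8. The rank of Syt5 depends on the length used: by the median length of its coding transcripts it was at 396 CPM per kb, above Syt13. Syt11, which does not bind calcium, was at 18.0 CPM per kb. Syt7, a high-affinity calcium sensor for insulin and glucagon release, was at 10.2 and Syt14 at 4.01. By the median length Syt7 was at 39.5, above Syt11 at 22.2.

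Syt4 showed the smallest p of all members. Syt4 (ENSMUSG00000024261, minus strand of chromosome 18 from 31437808 to 31447406 in GRCm38) is known to accumulate as beta cells mature and to shift the calcium sensitivity of insulin release. It was at 8.41, 8.50, 8.42 and 8.18 log2 CPM in vehicle and at 7.63, 7.77, 7.89 and 8.12 in PAHSA. The groups did not overlap, but the highest PAHSA value, in replicate 4, came close to the lowest vehicle value, in replicate 5. The means were 8.38 ± 0.14 and 7.85 ± 0.21 (SD, n = 4), so that the PAHSA level was 1.43-fold lower (difference -0.52, 95% confidence interval -0.78 to -0.26). The adjusted limma p was 0.671. A fit with the acinar marker mean as covariate gave -0.65, the far end of a range over all alternatives that reached -0.45 at the other end. The library kit does not mark the strand, 12.3% of the 31-base words of Syt4 lie in the antisense gene Gm26658, and reads of these genes cannot be told apart there. The deposited values do not include Gm26658, so its own level cannot be given.

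The other synaptotagmins gave smaller differences. Syt11 was at 6.58, 6.49, 6.59 and 6.82 log2 CPM in vehicle and 6.44, 6.36, 6.51 and 6.08 in PAHSA. Only PAHSA replicate 3 reached into the vehicle range, and the difference was -0.27 (SE 0.13; -0.12 with the acinar mean in the fit). Syt7 was at 6.01, 6.0, 5.74 and 6.01 in vehicle and 6.52, 6.28, 5.99 and 5.90 in PAHSA, overlapping, at 0.23 (SE 0.16; 0.11 without PAHSA replicate 1). Syt5 differed by -0.13 (SE 0.12) and Syt14 by 0.22 (SE 0.21). Of the 6 tested synaptotagmins 3 were above 0 and 3 below.

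**Figure D2:**
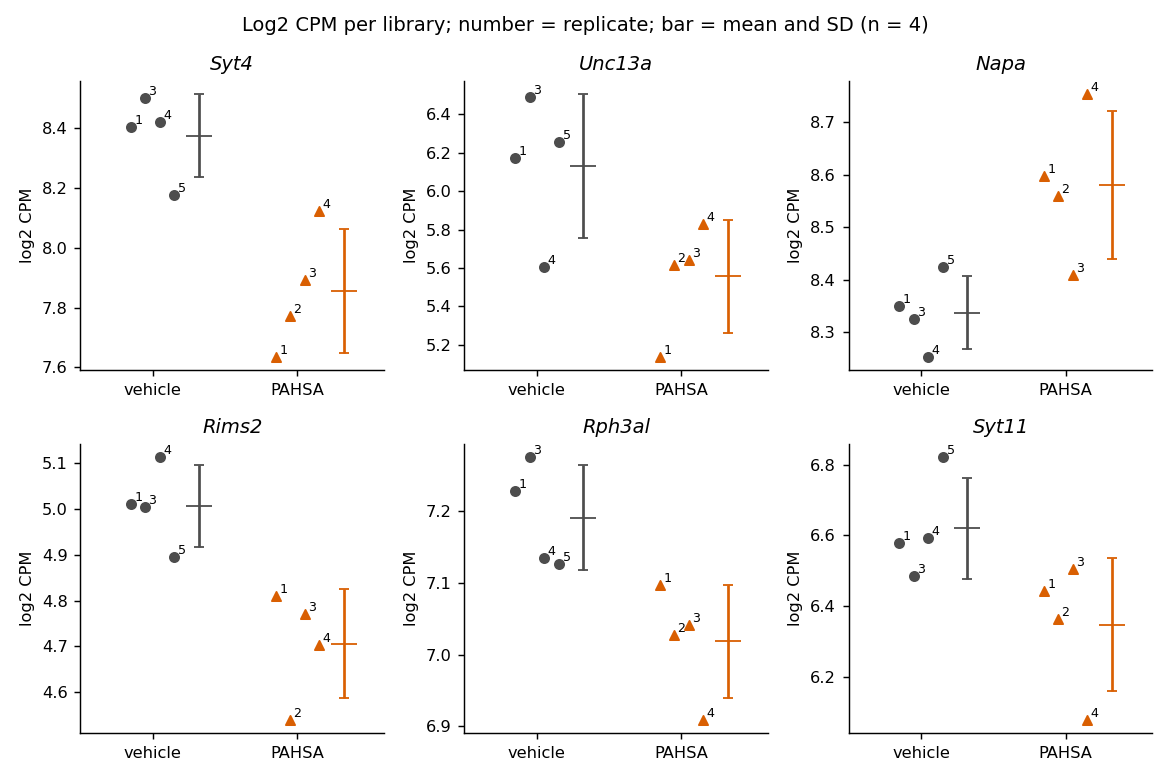
Log2 CPM of 6 members in the 4 vehicle (grey circles) and 4 PAHSA libraries (orange triangles), numbered by replicate, with the mean and SD of each group (n = 4); each panel has its own axis, which does not start at 0. Syt4, Rims2 and Rph3al separate the groups, while Unc13a, Napa and Syt11 overlap through 1 or a few libraries.

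Among Rab GTPases of secretory granules, Rab27a, which recruits granuphilin and other effectors to insulin granules, led at 62.4 CPM per kb, followed by Rab3d at 45.8, Rab3a at 33.3 and Rab37 at 25.9. Rab3b was at 11.4, Rab3c at 1.76 and Rab27b at 1.25 CPM per kb, which puts Rab27a above its closest relative in every library. By the median transcript length Rab3d came first at 78.5 CPM per kb. Rab27a was at 7.66, 7.57, 7.55 and 7.79 log2 CPM in vehicle and 7.58, 7.94, 7.52 and 7.33 in PAHSA, a difference of -0.05 (95% confidence interval -0.34 to 0.24). Rab3a, the Rab of synaptic and endocrine granules, was at 5.61, 5.52, 5.96 and 5.54 in vehicle and 5.77, 5.83, 5.60 and 5.65 in PAHSA, and differed by 0.05 (SE 0.14). Both genes had overlapping groups. Rab3c had the smallest p of the group, at 4.02, 4.23, 3.77 and 4.14 log2 CPM in vehicle and 3.81, 3.24, 3.23 and 4.32 in PAHSA. PAHSA replicates 2 and 3 were lowest and PAHSA replicate 4 was the highest of all 8, and the difference was -0.39 (SE 0.29). It moved to -0.85 with the acinar mean in the fit, to -0.62 without PAHSA replicate 4, to -0.71 without the libraries numbered 4 and to -0.25 without PAHSA replicate 2 or 3. Rab3b and Rab27b spread widely within both groups or within vehicle, with ranges of 1.33 and 1.67 over the 8 libraries. Rab37 differed by 0.20 (SE 0.20). Of the 7 Rab genes 4 were above 0 and 3 below.

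Rab effectors, priming and clamping factors prepare a docked granule for fusion. Rph3al, which encodes the Rab effector Noc2, was the most abundant of the 7 at 62.8 CPM per kb. Cplx2, a complexin that clamps and then promotes fusion, was at 10.1 and the priming factor gene Cadps at 8.99. Rims2, a scaffold of the active zone that binds Rab3, stood at 6.08, Unc13a at 5.83 and Unc13b at 2.70. Cadps2 was lowest at 1.33. By the median length of the coding transcripts Unc13a was at 18.6, above Cplx2 at 10.1, and Unc13b at 7.91, above Rims2 at 6.27. In this group 3 members were above 0 and 4 below, with a median difference of -0.17, beside -0.01 over all genes, and 1 was lower at an unadjusted p under 0.05. It also held 2 of the 3 members whose groups separated. Leaving out Unc13a, Rims2, Rph3al and Cadps2, the differences were 0.13 for Cadps, 0.01 for Cplx2 and 0.005 for Unc13b.

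Unc13a was at 6.17, 6.49, 5.61 and 6.25 log2 CPM in vehicle and at 5.14, 5.61, 5.64 and 5.83 in PAHSA. Vehicle replicate 4 lay among the PAHSA values and the other vehicle libraries above them. The means were 6.13 ± 0.37 and 5.56 ± 0.30 (SD, n = 4), a 1.49-fold lower level in PAHSA (difference -0.57, 95% confidence interval -1.04 to -0.11, limma adjusted p = 0.671). Exons of Unc13a overlap those of Colgalt1 of the opposite strand, with 3.63% of 31-base words in common, and Colgalt1 itself differed by 0.02 (SE 0.19). Rims2 was at 5.01, 5.0, 5.11 and 4.90 log2 CPM in vehicle and 4.81, 4.54, 4.77 and 4.70 in PAHSA. All PAHSA libraries lay below all vehicle libraries, by a mean of -0.30 (SE 0.16, limma adjusted p = 0.715). Rph3al separated more narrowly, at 7.23, 7.28, 7.13 and 7.13 in vehicle and 7.10, 7.03, 7.04 and 6.91 in PAHSA. Its difference was -0.17 (SE 0.09, limma adjusted p = 0.728), and the separation was lost under quantile normalization or with CPM rescaled to the same sum in every library.

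SNARE recycling was led by Napa at 141 CPM per kb, the second most abundant member of the list by the longest transcript. The ATPase gene Nsf was at 30.7 and Napb, the relative of Napa known from brain, at 4.99. By the median length of the coding transcripts Nsf was level with Napa, at 140.5 and 140.6 CPM per kb. Napa (ENSMUSG00000006024, plus strand of chromosome 7 from 16098458 to 16117975 in GRCm38) was at 8.35, 8.32, 8.25 and 8.42 log2 CPM in vehicle and 8.60, 8.56, 8.41 and 8.75 in PAHSA. Only PAHSA replicate 3 lay inside the vehicle range, just below vehicle replicate 5. The means were 8.34 ± 0.07 and 8.58 ± 0.14 (SD, n = 4), 1.18-fold higher in PAHSA (difference 0.24, 95% confidence interval 0.04 to 0.45, limma adjusted p = 0.671). Adding the acinar mean as covariate gave 0.14 for Napa. Napb differed by 0.40 (SE 0.24) and Nsf by 0.10 (SE 0.11), so all 3 genes of this role were above 0, with overlapping groups in each.

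The promoters of 3 of these genes are shown because they belong to members that were lower or higher in PAHSA without adjustment, or separated the groups, and because RefSeq sequences of the annotation build were at hand for them. Of the 46 members 36 had an entry, with 44 promoters. Each window runs from 250 bases before to 50 bases after the annotated start in GRCm38.p6, and is written 5′ to 3′ on the gene's strand. Capitals mark the motifs searched on both strands: the GC box GGGCGG, the CCAAT box CCAAT, the TATA box TATAAA, the cAMP response element TGACGTCA and the E-boxes CACGTG and CAGCTG.
Napa, plus strand, chr7:16098330-16098629: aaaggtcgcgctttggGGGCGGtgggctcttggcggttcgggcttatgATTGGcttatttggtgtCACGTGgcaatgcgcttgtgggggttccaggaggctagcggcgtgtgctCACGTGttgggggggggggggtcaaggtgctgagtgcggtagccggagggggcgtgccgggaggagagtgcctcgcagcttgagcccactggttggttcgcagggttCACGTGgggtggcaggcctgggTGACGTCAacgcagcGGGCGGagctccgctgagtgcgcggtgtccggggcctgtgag
Unc13a, minus strand, chr8:71671708-71672007: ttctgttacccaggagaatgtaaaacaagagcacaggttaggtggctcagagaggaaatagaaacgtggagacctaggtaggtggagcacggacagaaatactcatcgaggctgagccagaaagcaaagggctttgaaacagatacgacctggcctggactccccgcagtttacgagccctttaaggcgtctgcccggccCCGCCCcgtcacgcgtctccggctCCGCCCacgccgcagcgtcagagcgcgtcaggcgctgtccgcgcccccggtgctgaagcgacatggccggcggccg
Rph3al, minus strand, chr11:75925842-75926141: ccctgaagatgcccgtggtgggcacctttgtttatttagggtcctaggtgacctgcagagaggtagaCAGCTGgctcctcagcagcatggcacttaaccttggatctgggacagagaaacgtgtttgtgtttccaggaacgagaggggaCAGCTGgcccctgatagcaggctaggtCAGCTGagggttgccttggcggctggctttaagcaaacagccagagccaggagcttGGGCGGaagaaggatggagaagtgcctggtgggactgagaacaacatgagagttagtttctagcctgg
The Napa window holds 3 CACGTG boxes, 1 cAMP response element, 2 GC boxes and 1 CCAAT box. The Unc13a window holds 2 GC boxes and the Rph3al window 3 CAGCTG boxes and 1 GC box. CACGTG was found in 12 of 44 member promoters (27.3%, from 9 genes) and in 7.15% of all 32851 promoters of that length. GC boxes were found in 61.4% of member promoters and 35.7% of all, CAGCTG in 22.7% and 16.3%, CCAAT in 36.4% and 37.4%, TATAAA in 6.82% and 13.6%, and the cAMP response element in 4.55% and 1.79%. Member promoters had a median GC content of 61.3% and all promoters 52.7%. Motif shares were not compared at equal GC content, and promoters of the same gene were counted separately. The Rph3al window lies inside the span that GENCODE gives the gene, whose outermost start is farther upstream. The start used for Napa also lies downstream of its outermost GENCODE start at 16098458. More than the last 50 bases of the Napa window therefore lie inside that gene. A match describes the letters of the window and is not evidence of binding.

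Exocyst subunits tether vesicles at the plasma membrane. The 8 genes ran from 5.58 CPM per kb for Exoc5 to 17.6 for Exoc4. By the median length of the coding transcripts they ran from 7.46 for Exoc8 to 32.8 for Exoc4. Exoc1 had the smallest p, at 5.15, 4.96, 4.56 and 4.29 log2 CPM in vehicle and 5.54, 4.45, 5.06 and 5.37 in PAHSA, overlapping, with a difference of 0.37 (SE 0.27). Adding the acinar mean as covariate gave -0.004. The value was 0.22 without vehicle replicate 5 or PAHSA replicate 1 and 0.59 without PAHSA replicate 2. Exoc4 was at 6.79, 6.36, 6.34 and 6.27 in vehicle and 6.06, 6.0, 6.82 and 6.44 in PAHSA, at -0.11 (SE 0.19). The remaining subunits Exoc2, Exoc3, Exoc5, Exoc6, Exoc7 and Exoc8 ranged from -0.15 to 0.28. Exoc8 was low in 1 library of each group, at 4.01 in vehicle replicate 4 and 4.13 in PAHSA replicate 4, against 5.01 to 5.64 in the others. Of the 8 subunits 5 were above 0 and 3 below, with 0 at an unadjusted p under 0.05.

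**Figure D3:**
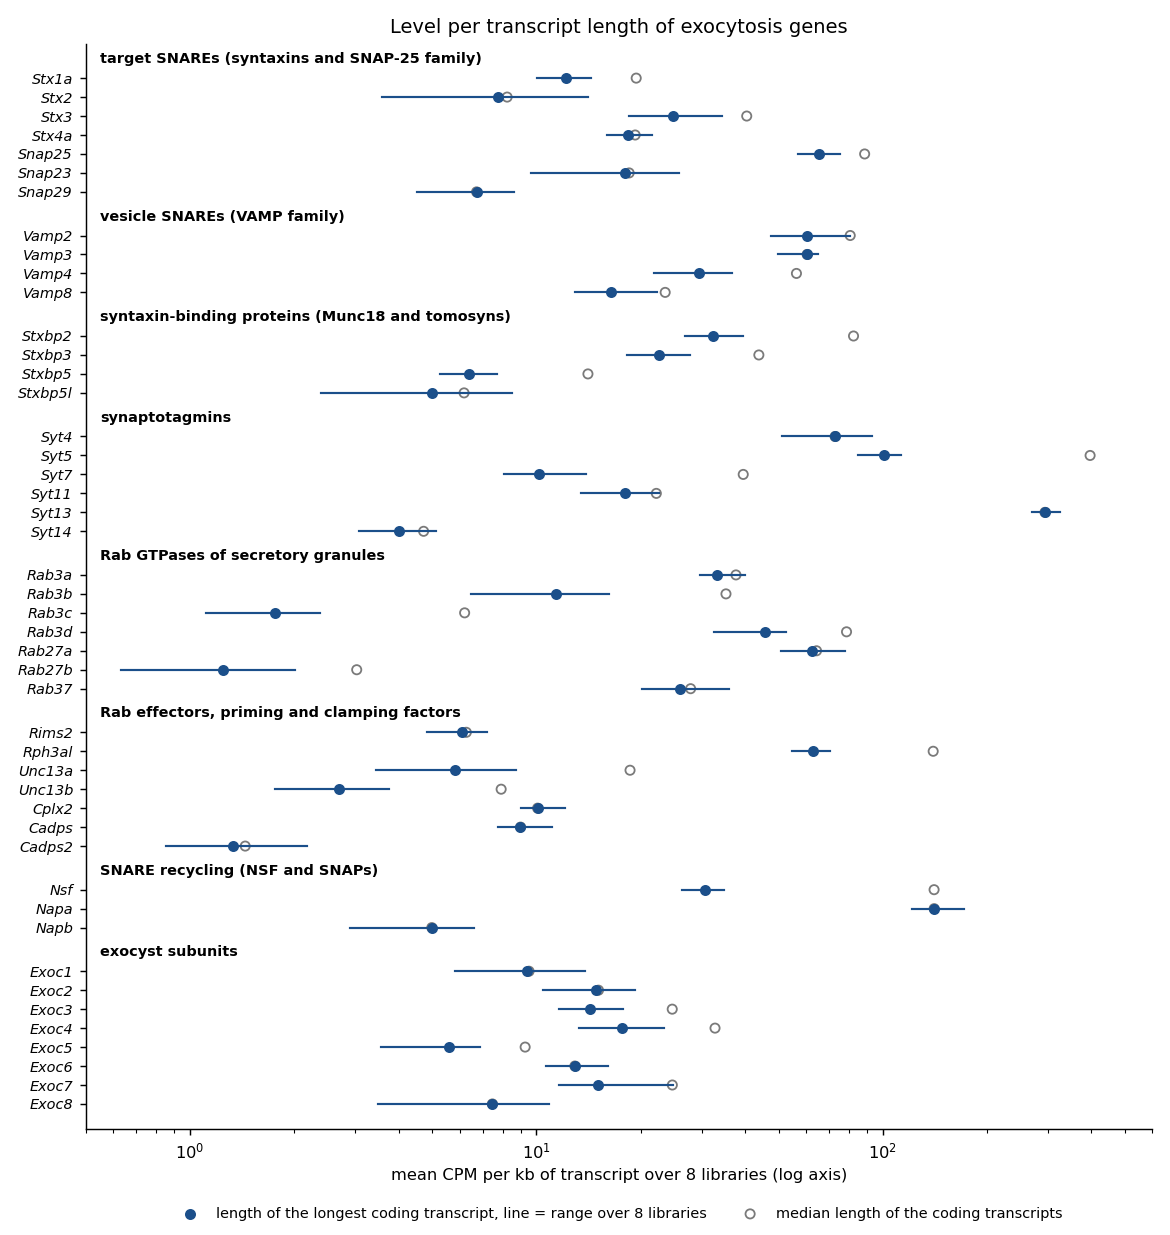
Mean CPM per kb of transcript for the 46 exocytosis genes on a log axis, by the longest coding transcript (filled blue, with the range over the 8 libraries as a line) and by the median length of the coding transcripts (open grey). Syt13 at 294 and Napa at 141 CPM per kb lead by the longest transcript and Rab27b at 1.25 is lowest; where the symbols lie far apart, as for Syt5, the level depends on the length used.

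Rab3d, Rab27b, Stx2, Stx3, Stxbp2 and Vamp8 are known from the zymogen granules of acinar cells. All 26 tested acinar markers were lower in PAHSA, with a median difference of -2.31. By limma 18 of them had an unadjusted p under 0.05 (69.2%, beside 4.29% of all genes in this direction). None passed an adjusted p of 0.05. The median difference of the 6 zymogen granule members was -0.02, with 3 above 0 and 3 below. Rab3d was at 7.57, 7.34, 7.68 and 7.58 log2 CPM in vehicle and 7.44, 7.65, 7.45 and 6.98 in PAHSA. It was highest in vehicle replicate 4 and lowest in PAHSA replicate 4, the libraries with the most and the least acinar marker RNA. Over the 8 libraries its Pearson r with the acinar marker mean was 0.92 (two-sided exact permutation p = 0.00538, adjusted over all genes 0.438) and its Spearman rho 0.83 (exact permutation p = 0.0154, adjusted 0.565). Without the libraries farthest from the median, vehicle 4 and PAHSA 4, r was 0.52, and without PAHSA 4 alone it was 0.68, so the size of the relation rests on them. The difference of Rab3d between the groups was -0.16 (SE 0.14), 0.10 with the acinar mean in the fit and 0.02 without the libraries numbered 4.

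In Stxbp2, Stx3 and Rab27b the relation depended on PAHSA replicate 4, and differences in r between the genes were not tested. Over all 8 libraries and then without PAHSA replicate 4, r was -0.38 and 0.60 for Stxbp2, 0.22 and -0.61 for Stx3 and -0.34 and -0.81 for Rab27b. It was 0.40 and 0.27 for Vamp8 and -0.11 and -0.03 for Stx2. Stx3 was at 5.91, 5.90, 5.91 and 6.17 in vehicle and 6.59, 6.21, 6.39 and 5.70 in PAHSA, where replicates 1 to 3 lay above all vehicle libraries and replicate 4 below all of them. Its difference was 0.25 (SE 0.18), and it was 0.42 without PAHSA replicate 4, 0.12 without PAHSA replicate 1 and 0.48 with the acinar mean in the fit. Stx2 was at 4.76, 4.19, 4.53 and 4.35 in vehicle and spread from 3.39 in PAHSA replicate 2 to 5.37 in PAHSA replicate 3. Stxbp2 ranged from 6.48 to 6.63 in vehicle and from 6.28 to 6.85 in PAHSA, where it was highest in replicate 4, and differed by -0.05 (SE 0.14). Vamp8 ranged from 4.75 to 5.53 in vehicle and from 4.89 to 5.21 in PAHSA. Rab27b was at 3.31, 3.79, 2.12 and 2.27 in vehicle and 3.36, 2.96, 3.37 and 2.91 in PAHSA, with the acinar-rich vehicle replicates 4 and 5 lowest. Its difference of 0.28 (SE 0.42) was 0.03 without vehicle replicate 4, 0.08 without vehicle replicate 5, 0.58 without vehicle replicate 3 and 0.42 without vehicle replicate 1.

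Relations with the acinar mean were computed for all 12231 genes, once by Pearson and once by Spearman. Of the 46 members, 0 passed an adjusted p under 0.05 by exact permutation in either (0.368% of all genes did by Pearson). At an unadjusted exact permutation p under 0.05 there were 6 members by Pearson, 13.0% of 46 beside 7.09% of all genes, and 4 by Spearman, 8.70% beside 6.61%. The 6 were Rab3d, Syt11, Napa, Exoc1, Syt14 and Cadps. Without PAHSA replicate 4 there were 5, 10.9% beside 7.24%: Exoc1, Rab27b, Snap25, Snap29 and Syt7, so 1 of the 6 remained. Syt11 had r = 0.83 (exact permutation p = 0.0172, adjusted 0.631), and 0.57 without the farthest libraries. Syt14 and Cadps had r = -0.75 each, and -0.63 and -0.26 without the farthest libraries. Napa had r = -0.83 (exact permutation p = 0.00918, adjusted 0.550), and without the farthest libraries r was -0.36. Exoc1 had r = -0.75 (exact permutation p = 0.0165, adjusted 0.631) and rho = -0.88, and without the farthest libraries r was -0.95. Within a group there were 4 libraries, too few for a relation of its own. The part of acinar RNA in the differences of these genes was not tested.

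**Figure D4:**
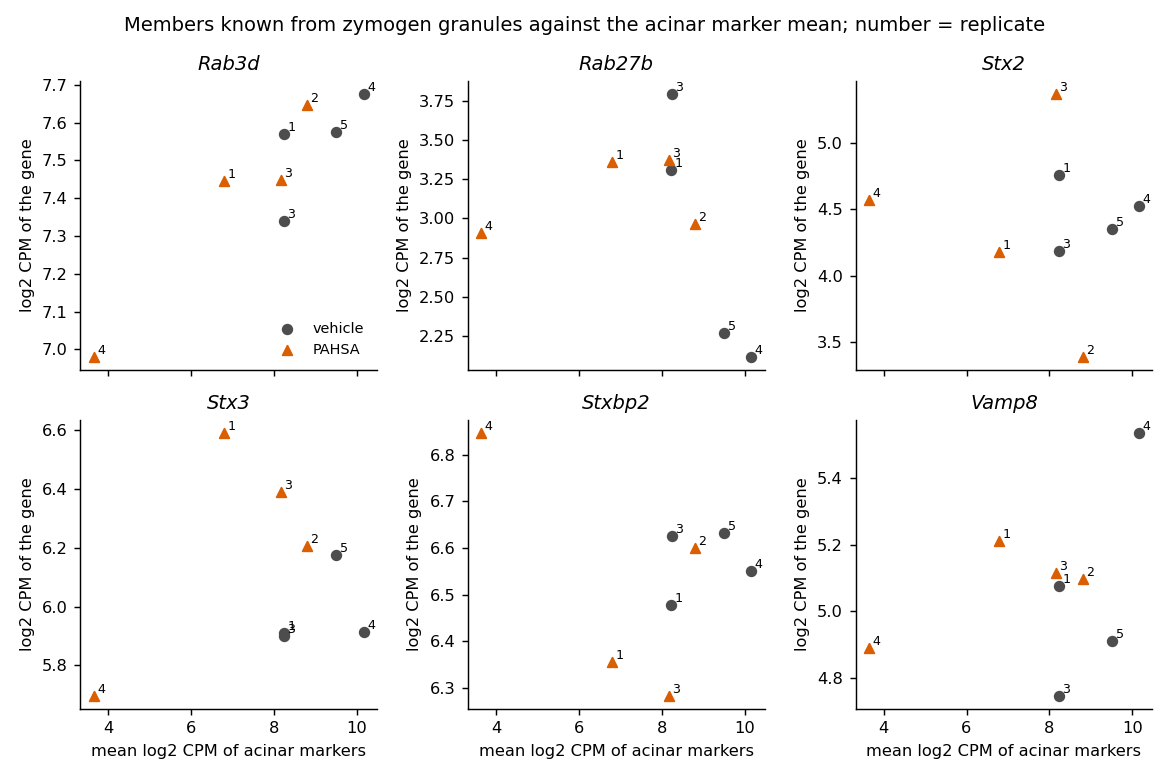
Log2 CPM of 6 members known from zymogen granules against the mean log2 CPM of the acinar markers, in the 4 vehicle (grey circles) and 4 PAHSA libraries (orange triangles), numbered by replicate; each vertical axis has its own scale and none starts at 0. Rab3d runs from 6.98 in PAHSA replicate 4 to 7.68 in vehicle replicate 4, while r of the other 5 genes lies between -0.38 and 0.40 with all libraries and between -0.81 and 0.60 without PAHSA replicate 4.

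Further genes of vesicle fusion also gave 0 calls. Of 71 further exocytosis genes 58 were in the table and 51 were tested, with 27 above 0, 24 below, a median difference of 0.04 and 0 past an adjusted p of 0.05. At an unadjusted p under 0.05, 2 were higher and 2 lower, 7.84% beside 7.31% of all genes. The groups separated in 2 genes that were higher and 2 that were lower, 7.84% beside 4.01% of all genes. Rab3ip, an exchange factor of the Rab8 family known as Rabin8, was at 4.98, 5.12, 5.21 and 5.29 log2 CPM in vehicle and 5.80, 5.76, 6.17 and 5.49 in PAHSA. All PAHSA libraries lay above all vehicle libraries, by 0.66 (SE 0.17). Baiap3, a relative of Munc13 that acts in dense-core vesicle traffic, separated in the same direction, by 0.46 (SE 0.15). Rab11a, a GTPase of recycling endosomes, differed by -0.19 (SE 0.08), with PAHSA wholly below. Syt12 was at 2.25 to 3.51 in vehicle and at -3.86, 1.65, -6.31 and 1.93 in PAHSA, where replicate 3 was at the lowest value of its library.

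Sytl4, which encodes the Rab27a effector granuphilin, had a vehicle mean of 8.04 ± 0.20 and a PAHSA mean of 8.24 ± 0.09 log2 CPM (SD, n = 4), a difference of 0.20 (95% confidence interval -0.04 to 0.44). The granule protein gene Chga differed by 0.16 (SE 0.09) and Ins2 by 0.18 (SE 0.13). Of 25 SNAREs and partners of endosomes and the Golgi 23 were tested, with a median difference of -0.10. Above 0 were 6 (26.1%, beside 49.1% of all genes) and below it 17. By limma 0 passed after adjustment and 2 were lower before it. They made up 8.70%, beside 7.31% of all genes in either direction and 4.29% lower. These 2 were Stx12, a syntaxin of endosomes, at -0.29 (SE 0.11), and Stx11, a syntaxin of immune cells, at -3.26 (SE 1.30) with values down to -4.72 in PAHSA replicate 3.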

How the data were processed

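Per the labels, islet RNA was column-purified and sequenced from Nextera XT libraries, a kit that does not mark strand. The deposited values are log2 CPM for 13725 genes in 8 columns, all matched to libraries by name. The authors scaled counts to an effective library size and used kallisto and limma, per the submitters' processing notes; these notes state no version, and the build and annotation stay unknown here. kallisto divides reads between similar transcripts by a model. Estimated counts were recovered from each column's lowest value (0.5 added counts) as a description of depth. They ranged from 34461742 to 45236238 per library, and 47.8% to 51.5% of them lay within 0.01 of a whole number, so no count test was run.

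Symbols, positions and lengths came from GENCODE release M21 (GRCm38), and 56 identifiers had no symbol. Genes with a mean log2 CPM above 0 (12231) were fitted with limma 3.58.1 in R 4.3.3 (eBayes with trend, group as the only term, two-sided), with Benjamini-Hochberg adjustment over all genes tested and a threshold of 0.05. The code was tested on simulated data. Differences are PAHSA minus vehicle in log2 CPM. CPM per kb divides the mean CPM by the longest coding transcript unless stated otherwise, and some orders of genes change with the median length. Words of 31 bases were compared with all other transcripts on both strands. Over 5% of words were shared in 7 members: Syt4, Stxbp3, Vamp3, Rab3b, Syt11, Exoc7 and Rab27a. The levels of these members are less certain. The acinar relation used all 40320 orders of the libraries.

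Members and lists were chosen with earlier results of these data known. Described in full were members at an unadjusted p under 0.05, the member of smallest p and of highest level per length in each role, the zymogen granule members and Snap25, Stx1a, Vamp2, Syt7, Rab3a, Rab27a and Stxbp5l; the report names those added after their values were seen. Of the other lists, genes at an unadjusted p under 0.05 and the reference genes were named, except 1 that is not reported here. Alternatives changed the filter, scale, normalization, variance model, covariate, pairing and libraries.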

Additional observations from a re-analysis of the deposited data

Results flagged for a closer look

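In 4 of 92 groups of 4 libraries, 1 library lay far from the other 3 by Dixon's gap test at 95%, where chance alone gives about 1 in 20 groups. Stx3 was at 6.17 log2 CPM in vehicle replicate 5, against 5.90 to 5.91 in the other vehicle libraries. Vamp4 was at 5.91 in PAHSA replicate 1, against 6.40 to 6.48. Syt7 was at 5.74 in vehicle replicate 4, against 6.0 to 6.01. Rab37 was at 5.70 in vehicle replicate 3, against 5.98 to 6.03. None of these genes had an unadjusted limma p under 0.05 with all 8 libraries, and their causes were not tested.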

How the results depend on the processing

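The count of members past an adjusted p of 0.05 was 0 by limma with all libraries and in each of the 18 alternatives, with 1 to 5 members at an unadjusted p under 0.05. The signs of Syt4, Unc13a, Napa, Rims2, Rph3al, Syt11, Snap25 and Vamp2 held in all 18. Members higher without adjustment numbered 2 under quantile normalization and with the acinar mean as a covariate, 0 in eBayes without trend, and 0 to 2 when 1 library was left out. Napa was not among them with the acinar covariate, where they were Stx3 and Rab3b, nor without the libraries numbered 4. Members lower numbered 4 without the libraries numbered 4, 1 over the libraries numbered 1, 3 and 4, and 1 to 3 when 1 library was left out. Groups did not overlap in 5 members over the libraries numbered 1, 3 and 4, in 8 without the libraries numbered 4, and in 3 to 5 when 1 library was left out. The shares of all genes that separate in these smaller sets of libraries are not given here.

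Same-numbered libraries did not deviate together over the genes tested (r from -0.0217 to -0.0169). An r near 0 cannot show whether the numbers denote a pairing, so fits with and without a replicate block are given. With the replicate block over the numbers 1, 3 and 4, 0 members were higher and 1 lower without adjustment, and 5 separated. With or without the block, Stx2 was at 0.21, Vamp8 at -0.0464, Stxbp5l at 0.27 and Rab3a at -0.0249, each with the opposite sign to the full fit.

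The sign also changed with the acinar covariate for Stx1a (0.0854), Stxbp5l (0.16), Rab3d (0.10), Rab27a (0.11) and Exoc1 (-0.0044), and without the libraries numbered 4 for Stx1a (0.00944), Stxbp5l (0.16), Rab3d (0.019) and Rab27a (0.00191). With 1 library left out, Stx1a ranged from -0.17 to 0.00163, Stx2 from -0.41 to 0.25, Vamp8 from -0.10 to 0.17, Stxbp2 from -0.16 to 0.0283, Stxbp5l from -0.44 to 0.17, Rab27a from -0.17 to 0.0337 and Exoc4 from -0.28 to 0.00467. The cause was not tested. Rescaling CPM to one sum, chosen after seeing the data, left 2 separated members.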
